A study of Mus musculus with 4 samples.

Results

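RGS proteins (regulators of G protein signalling) switch off heterotrimeric G proteins. They speed the hydrolysis of GTP by active alpha subunits, so a cell with more of an RGS protein ends a receptor's signal sooner. The family is divided by sequence into the small R4 proteins, the R7 proteins that work bound to Gβ5, the R12 proteins and the RZ proteins, and several of them shape neurotransmitter signalling in neurons. The 10 genes described here are Rgs2, Rgs3, Rgs4, Rgs5, Rgs8 and Rgs16 of the R4 subfamily, Rgs7 of R7, Rgs10 of R12, and Rgs17 and Rgs19 of RZ. They were picked by symbol, out of 19505 genes with a named probe set, with their differences between deltamethrin and vehicle arrays already known. Their values are therefore given as a description, without a p-value. Each of the 10 was read by 1 probe set, and none was lost to a filter.

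The cells were Neuro-2a, a mouse neuroblastoma line from an albino strain A mouse, which is widely used as a model of neurons. One group received 30 µM deltamethrin, a pyrethroid insecticide that keeps voltage-gated sodium channels open, for 24 h. The other received the vehicle, 0.1% DMSO, for 24 h. Each group had 2 Clariom S Mouse arrays, and the question was which transcripts differed between them. The labels name no separate cultures, so the p-values given for pathway genes cover the spread between arrays, and that spread may be technical. Without a batch label, a batch effect and the treatment cannot be told apart.

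Values are on a log2 scale, so a difference of 1 is 2-fold. The median of all 22206 probe sets was 5.60, and a gene is called dim where the mean of its higher group lay below that. The 2 deltamethrin arrays differed by a median of 0.21 per probe set and the 2 vehicle arrays by 0.20, and the number of arrays limits the precision. Of 12 measured markers of sympathetic neuroblasts and neurons, 10 were above the median, against 51.0% of all probe sets. Among them were Tubb3 (neuronal β-tubulin), Phox2a, Hand2, Gata2 and Isl1, while the neurofilament genes Nefl and Nefm were dim. Both deltamethrin arrays lay below both vehicle arrays for 8 of these 12 markers and above them for 1, Th, against 23.5% and 20.3% of all probe sets. None of the 12 was called in limma (0.432% of all probe sets were). An unadjusted p below 0.05 was found for 6 (13.7% of all probe sets). The smallest p belonged to the transcription factor gene Isl1 (-1.14 ± 0.17, limma adjusted p = 0.0740) and the receptor gene Ret (-0.66 ± 0.17, limma adjusted p = 0.187).

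The gene that stood apart in the RGS family was Rgs4, a brake on Gi/o and Gq signalling in neurons, so its promoter is printed first, with that of Rgs5, its neighbour on chromosome 1. Both come from RefSeq (GRCm38.p6) and run from 250 bases before to 50 bases after the start site. Rgs4 lies on the minus strand at chr1:169747593-169747892 and Rgs5 on the plus strand at chr1:169655251-169655550. Capitals mark TGACG, the half-site of the cAMP response element, on either strand, and TATAAA, the TATA box.
Rgs4: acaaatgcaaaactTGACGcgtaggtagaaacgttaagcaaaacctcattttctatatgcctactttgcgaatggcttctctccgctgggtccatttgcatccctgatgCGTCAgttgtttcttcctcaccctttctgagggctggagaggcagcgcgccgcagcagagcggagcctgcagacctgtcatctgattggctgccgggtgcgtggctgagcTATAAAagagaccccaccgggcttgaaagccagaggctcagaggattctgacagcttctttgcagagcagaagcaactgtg
Rgs5: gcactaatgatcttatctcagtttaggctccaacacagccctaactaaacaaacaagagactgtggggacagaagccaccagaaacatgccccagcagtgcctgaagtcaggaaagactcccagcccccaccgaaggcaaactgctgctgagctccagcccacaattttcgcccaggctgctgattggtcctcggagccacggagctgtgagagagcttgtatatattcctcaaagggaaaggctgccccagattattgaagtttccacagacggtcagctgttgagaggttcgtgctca

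The Rgs4 promoter held TGACG at 2 places, with first bases at -236 and, on the opposite strand, at -141 from the start site, and TATAAA at -31. At least 1 TGACG stood in 20.8% of the 32851 mouse promoters of this length, and TATAAA in 13.6%. All 10 RGS genes matched the promoter table, with 15 promoters between them. TGACG occurred in 3 of the 15, those of Rgs2, Rgs4 and 1 of the Rgs8 promoters. Both strands were also searched for the full element TGACGTCA, which contains the half-site, the antioxidant response element TGACNNNGC, the E-box CACGTG and the C/EBP-ATF composite TGATGNAA. These stand in 1.79%, 12.4%, 7.15% and 3.97% of all promoters. CACGTG was found in 1 promoter of Rgs19 and in that of Rgs7, TGACNNNGC in 1 of Rgs8, and TATAAA also in 2 of Rgs3. The Rgs5 window held no match to any of the 6 motifs. A match is a string of letters and does not show binding.

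Rgs4 was read at 5.59 and 5.42 in deltamethrin cells, against 7.07 and 7.47 in vehicle cells. Both deltamethrin arrays were lower than both vehicle arrays, with differences between -2.05 and -1.48 over the 4 pairs of arrays. The means were 5.51 ± 0.12 in deltamethrin cells and 7.27 ± 0.28 in vehicle cells (SD, n = 2 each), so Rgs4 fell by 1.77 ± 0.20 on the log2 scale (SE), which is a 3.40-fold lower level. Its deltamethrin mean lay just under the median of all probe sets. In bulk RNA, fewer cells expressing a gene and less RNA per cell cannot be told apart. Rgs4 was the 1 RGS gene of the 10 called by limma at an adjusted p below 0.05, where 0.0766% of all probe sets fell and 0.356% rose. The call was lost with the replicate number as a block and when any 1 of the 4 arrays was left out, at estimates from -1.97 to -1.57. Since Rgs4 was chosen with that call known, nothing is read from the count.

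**Figure D1:**
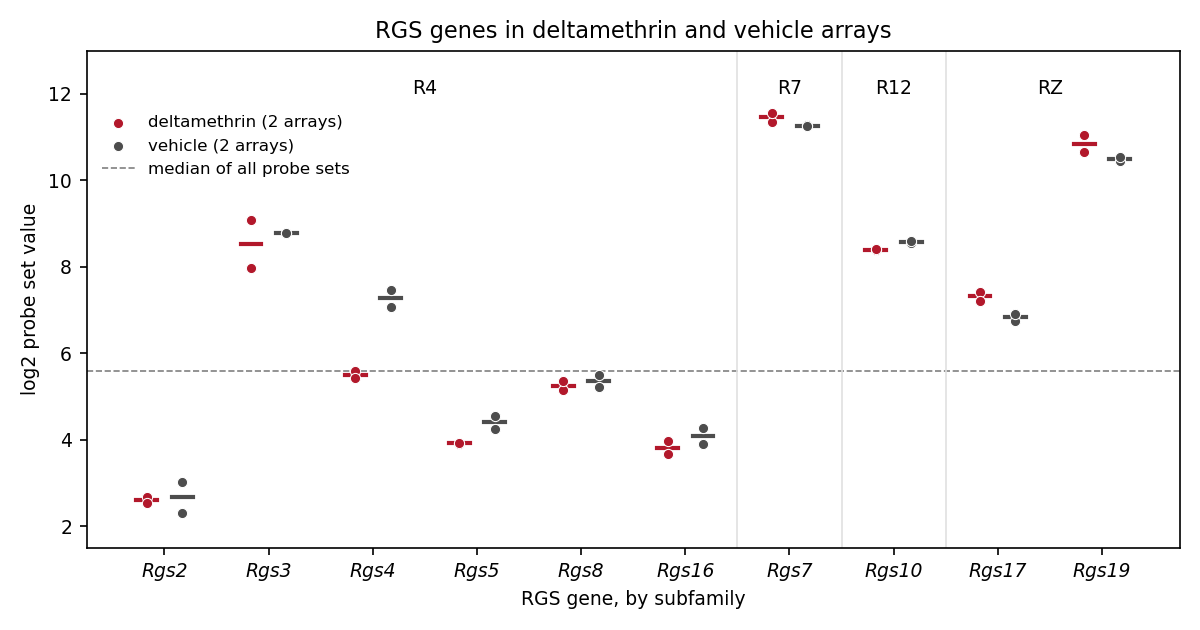
Log2 probe set values of the 10 RGS genes in the 2 deltamethrin arrays (red, left of each pair) and the 2 vehicle arrays (grey), with bars at the means and a dashed line at the median of all probe sets (5.60). Rgs4 shows the widest gap, with 5.59 and 5.42 in deltamethrin cells, against 7.07 and 7.47 in vehicle cells; heights of different genes cannot be compared, since they come from different probes.

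The other R4 genes gave smaller differences, and none was called. Rgs5, which acts on Gi and Gq and is best known from pericytes and smooth muscle, was at 3.91 and 3.92 in deltamethrin cells, against 4.56 and 4.26 in vehicle cells. Its groups did not overlap, and its difference of -0.50 ± 0.18 (SE) was the largest of the R4 genes after Rgs4, but the gene was dim in both groups. Rgs16, which acts on Gi/o and Gq and is induced by many stimuli, was at 3.97 and 3.66 in deltamethrin cells, against 4.28 and 3.90 in vehicle cells. Its groups overlapped, its difference was -0.28 ± 0.21, and it was also dim.

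Rgs8, a brain regulator of Gi/o, was at 5.14 and 5.35 in deltamethrin cells, against 5.51 and 5.23 in vehicle cells. The groups overlapped, with a difference of -0.13 ± 0.19. Rgs2, which prefers Gq and is known as an early response gene, was at 2.68 and 2.53 in deltamethrin cells, against 2.31 and 3.02 in vehicle cells. Rgs2 and Rgs8 were dim in both groups, and the Rgs2 difference of -0.06 ± 0.26 lay inside the gap of 0.71 between its vehicle arrays.

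Rgs3, an R4 protein with several long isoforms, was the R4 gene other than Rgs4 that was not dim. It was at 7.98 and 9.08 in deltamethrin cells, against 8.79 and 8.78 in vehicle cells. The deltamethrin arrays thus stood on either side of a tight vehicle pair, and the gap of 1.10 between them was exceeded by 0.910% of probe sets. The difference was -0.26 ± 0.35. It became 0.29 without deltamethrin replicate 1 and -0.81 without deltamethrin replicate 2, so Rgs3 has no settled direction.

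Rgs7 and the RZ genes had higher values in deltamethrin cells, again without a call. Rgs7, the R7 protein that regulates Go in neurons, was at 11.35 and 11.57 in deltamethrin cells, against 11.28 and 11.25 in vehicle cells, a difference of 0.20 ± 0.17. Rgs17, also called RGSZ2, which acts on Gz and Gi, was at 7.42 and 7.21 in deltamethrin cells, against 6.75 and 6.92 in vehicle cells. Rgs19, also called GAIP, the Gαi-interacting protein of vesicle membranes, was at 10.66 and 11.04 in deltamethrin cells, against 10.46 and 10.54 in vehicle cells. The groups of all 3 genes were apart, with differences of 0.48 ± 0.18 for Rgs17 and 0.35 ± 0.19 for Rgs19. The smallest gap between a deltamethrin and a vehicle array was 0.07 for Rgs7 and 0.12 for Rgs19, both below the median gap between replicate arrays, and 0.29 for Rgs17.

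Rgs10, a short R12 protein that acts on Gi and is well known from microglia, was at 8.39 and 8.41 in deltamethrin cells, against 8.55 and 8.61 in vehicle cells. These were tight and separate pairs, and the difference was small, at -0.18 ± 0.16. The nearest deltamethrin and vehicle arrays differed by -0.14, also less than the median gap between replicate arrays. Among the 10 genes, both deltamethrin arrays were above both vehicle arrays in 3 and below in 3, where 20.3% and 23.5% of all probe sets were. The median difference of the 10 was -0.15, against -0.02 over all probe sets. As the 10 were chosen with these values known, the comparison is a description.

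The 11 remaining RGS genes did not repeat the difference of Rgs4. In limma 0 of the 11 were called (0.432% of all probe sets were) and 0 had an unadjusted p below 0.05, where 13.7% of all probe sets did. Their differences ran from -0.21 to 0.52, with a median of -0.07, and 9 of the 11 were dim in both groups. Rgs9, the R7 protein of striatum and retina, was at 7.68 and 8.01 in deltamethrin cells, against 7.76 and 7.54 in vehicle cells (0.20 ± 0.20). Rgs14, a scaffold of the R12 subfamily, was at 5.57 and 5.63 in deltamethrin cells, against 5.92 and 5.54 in vehicle cells (-0.13 ± 0.19). Both genes overlapped between groups. The estimates furthest above 0 were those of the dim genes Rgs12 (0.52 ± 0.24), Rgs20 (0.46 ± 0.24) and Rgs13 (0.43 ± 0.20). With Rgs20, all 3 RZ genes had estimates above 0, as did 10309 of all 22206 probe sets. The smallest gap between a deltamethrin and a vehicle array was 0.01 for Rgs20, and nothing is read from the 3.

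**Figure D2:**
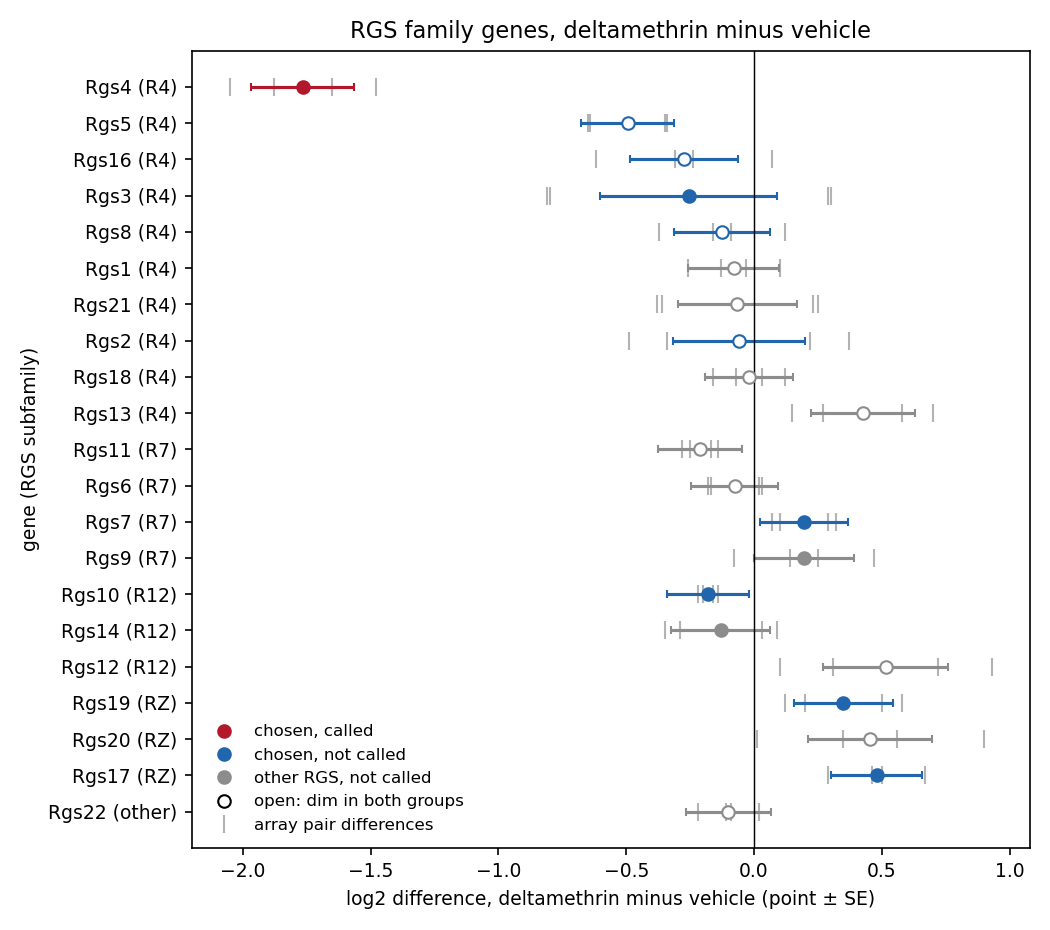
Log2 difference, deltamethrin minus vehicle, with its SE for the 10 chosen and 11 other RGS genes, ordered by subfamily; grey ticks are the 4 differences between single deltamethrin and vehicle arrays, and open circles are genes dim in both groups. Rgs4 at -1.77 stands clear of the rest, which lie between -0.50 and 0.52.

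Several RGS genes are neighbours in the genome, with estimates of different size. In the RefSeq order of protein-coding genes, Rgs5 and Rgs4 are adjacent on chromosome 1, with differences of -0.50 and -1.77. On the far sides of this pair, Nuf2 was at -0.81 and Ccdc190 at 0.04. Rgs8 and Rgs16 are also adjacent, at -0.13 and -0.28, and Rgs2 lies beside Rgs13, at -0.06 and 0.43.

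The genes whose profile over the 4 arrays was most like that of Rgs4 came from unrelated families. Likeness was the root mean square difference between values centred on each gene's mean, over 4 arrays. It therefore mostly reflects the difference between groups. The likest was the sulfotransferase gene Chst15, with a root mean square difference of 0.14. It was at 4.92 and 5.12 in deltamethrin cells, against 6.51 and 6.88 in vehicle cells. The repressor E2f7 (0.19), the pyruvate dehydrogenase kinase Pdk1 (0.20), the ETS factor Etv1 (0.23) and the mitophagy receptor Bnip3 (0.23) followed. These 5 had differences between groups from -1.77 to -1.47. No other RGS gene was among them, and with estimates no lower than -0.50 none could have been.

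The rest of the G protein pathway was set beside the chosen RGS genes in 10 lists that held 140 measured genes. The 11 other RGS genes described above are 1 of these lists and are counted in the 140. In limma 0 of the 140 were called, where 0.432% of all probe sets were. An unadjusted p below 0.05 was found for 16 of the 140, 8 higher and 8 lower, against 13.7% of all probe sets. The same shares apply to each list below, and 0 calls in a short list is not read as a result. The median difference was -0.04, and 75 of the 140 genes were not dim. A mean-variance trend in the variance model called 8 of them (3.63% of all probe sets were called), namely Gng5, Gng8, Prkar1b and Ric8a as higher and Cnr1, F2r, Grk5 and Snx25 as lower.

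Among 33 measured receptors 0 were called (0.432% of all probe sets were), and the median was -0.06. An unadjusted p below 0.05 was found for 5, 1 higher and 4 lower (13.7% of all probe sets). The lowest estimate was that of Cnr1, the Gi/o-coupled CB1 cannabinoid receptor, at 11.45 and 11.46 in deltamethrin cells, against 12.36 and 12.55 in vehicle cells. The difference was -1.0 ± 0.17 (limma adjusted p = 0.0925). F2r, the thrombin receptor PAR1, was at 12.70 and 12.92 in deltamethrin cells, against 13.44 and 13.63 in vehicle cells (-0.73 ± 0.18, limma adjusted p = 0.186). Both receptors were bright and their groups did not overlap, but neither passed. Most other receptors on the list, 24 of 33, were dim.

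Alpha subunits, among which are the targets of RGS proteins, held 0 calls among 16 genes (0.432% of all probe sets were called). Their median was -0.09, and 1 had an unadjusted p below 0.05 (13.7% of all probe sets did). Gnao1, the alpha subunit of Go and the main one in neurons, was at 13.92 and 14.00 in deltamethrin cells, against 13.73 and 13.93 in vehicle cells (0.13 ± 0.17). Gnai2, of Gi, was at 13.93 and 13.99 in deltamethrin cells, against 13.98 and 13.71 in vehicle cells (0.12 ± 0.18). Gnaq, of Gq, was at 10.94 and 10.93 in deltamethrin cells, against 11.41 and 11.33 in vehicle cells (-0.43 ± 0.16, limma adjusted p = 0.325). Gnaz, a preferred substrate of the RZ proteins, was at -0.45 ± 0.21 (limma adjusted p = 0.410). Gnaq was the 1 gene with an unadjusted p below 0.05. The groups of Gnaq and Gnaz did not overlap, while those of Gnao1 and Gnai2 did. The alpha subunits named here were thus bright, and none passed, while 5 of the 16 listed were dim. The list also holds Gnas, Gna12 and Gna13, outside the Gi, Go, Gz and Gq classes named above for the RGS genes.

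Of 15 beta and gamma subunits 0 were called (0.432% of all probe sets were), and the median was 0.02. An unadjusted p below 0.05 was found for 2, both higher (13.7% of all probe sets). Gng8, a gamma subunit known from olfactory and vomeronasal neurons, had the highest estimate of the pathway, at 10.38 and 9.43 in deltamethrin cells, against 8.58 and 8.08 in vehicle cells (1.58 ± 0.34, limma adjusted p = 0.144). Gng5, a widely expressed gamma subunit, was at 0.51 ± 0.16 (limma adjusted p = 0.270). The partners of R7 proteins held 0 calls among 5 genes and 0 at an unadjusted p below 0.05, against the same shares. Gnb5, the obligate partner of Rgs7, was at 8.80 and 8.99 in deltamethrin cells, against 8.60 and 8.58 in vehicle cells (0.31 ± 0.17, limma adjusted p = 0.494). The other 4, Rgs7bp, Rgs9bp, Gpr158 and Gpr179, were dim, with Gpr179 at -0.39 ± 0.17 (limma adjusted p = 0.396).

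Proteins with an RGS-like domain include the G protein-coupled receptor kinases, axins and sorting nexins. Of 14 measured, 0 were called (0.432% of all probe sets were). An unadjusted p below 0.05 was found for 2, both lower (13.7% of all probe sets). Grk5, a kinase that desensitises receptors, was at 8.93 and 8.99 in deltamethrin cells, against 9.92 and 9.89 in vehicle cells (-0.95 ± 0.16, limma adjusted p = 0.0939). Snx25, a sorting nexin, was at -0.59 ± 0.18 (limma adjusted p = 0.241). Other modulators held 0 calls among 9 genes and 1 gene at an unadjusted p below 0.05, against the same shares. That gene was Ric8a, a chaperone and exchange factor of alpha subunits, at 9.34 and 9.22 in deltamethrin cells, against 8.40 and 8.60 in vehicle cells (0.78 ± 0.17, limma adjusted p = 0.150). Gpsm1, which holds alpha subunits in the GDP-bound state, was at -0.31 ± 0.20 (limma adjusted p = 0.562).

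**Figure D3:**
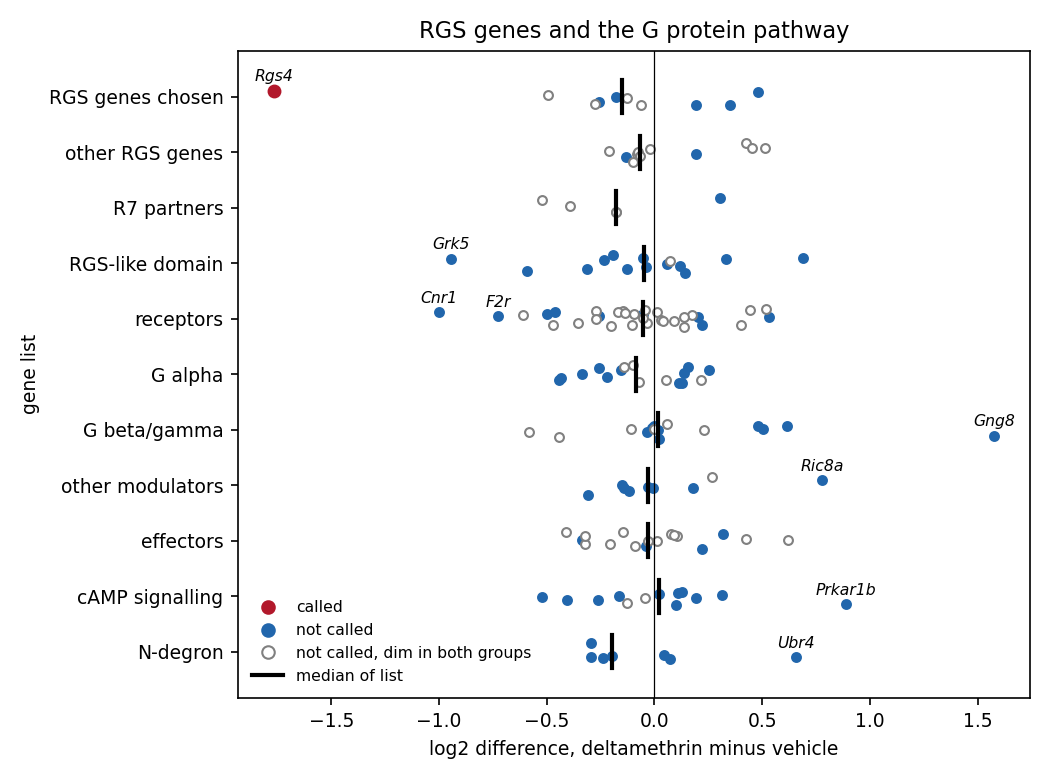
Log2 difference, deltamethrin minus vehicle, of every measured gene of the RGS set and the 10 pathway lists; filled red is called, blue is not called, open is not called and dim in both groups, and black bars are list medians. The medians lie between -0.20 and 0.02, and Rgs4 is the 1 called gene shown.

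Downstream, 0 of 17 effectors (adenylyl cyclases, phospholipases Cβ and G protein-gated potassium channels) and 0 of 13 cAMP signalling genes were called. In each list 2 had an unadjusted p below 0.05. Over all probe sets 0.432% were called and 13.7% had such a p. Only 4 of the 17 effectors were not dim. Adcy4 (0.62 ± 0.17, limma adjusted p = 0.210) and Kcnj9 (0.43 ± 0.17, limma adjusted p = 0.345) had the smallest p among effectors and were dim, as was the neuronal calcium-stimulated cyclase Adcy1 (-0.32 ± 0.20). Prkar1b, a regulatory subunit of protein kinase A found in neurons, was at 10.96 and 11.06 in deltamethrin cells, against 10.01 and 10.23 in vehicle cells (0.89 ± 0.17, limma adjusted p = 0.126). Another regulatory subunit, Prkar2a, was at -0.52 ± 0.16 (limma adjusted p = 0.262). The 2 subunits thus had estimates of opposite sign, and neither passed.

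The proteins RGS4, RGS5 and RGS16 are known to be destroyed through the cysteine branch of the arginine N-degron pathway, in which the second residue is exposed, oxidised and arginylated. The 7 genes of this pathway were all bright, and 0 were called, with 1 at an unadjusted p below 0.05. Over all probe sets these shares were 0.432% and 13.7%. Ate1, the arginyltransferase, was at 12.65 and 12.67 in deltamethrin cells, against 12.52 and 12.66 in vehicle cells (0.07 ± 0.17). Ado, the oxygen-dependent cysteine dioxygenase, was at 10.22 and 10.22 in deltamethrin cells, against 10.54 and 10.49 in vehicle cells (-0.29 ± 0.16). Ubr4, a ubiquitin ligase, had the highest estimate (0.66 ± 0.25, limma adjusted p = 0.338). Arrays measure transcripts, so RGS protein levels were not measured.

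Some RGS genes are known from other cell types, so markers of these were set beside them. In limma 0 of 22 were called (0.432% of all probe sets were). An unadjusted p below 0.05 was found for 2, Pdgfrb and Acta2 (13.7% of all probe sets). Astrocyte markers were all dim, with 5 values summing to 21.49 to 21.63 in deltamethrin arrays and 22.02 to 23.15 in vehicle arrays. The 4 oligodendrocyte and Schwann cell markers, also dim, summed to 14.07 to 15.03 in deltamethrin arrays and 14.10 to 14.19 in vehicle arrays. The 6 microglia and macrophage markers summed to 22.59 to 22.89 in deltamethrin arrays and 22.47 to 22.57 in vehicle arrays. Of these, Ptprc alone was not dim (-0.34 ± 0.17), and Aif1 was at 0.33 ± 0.17. Among the dim markers with the smallest p, Gfap was at -0.47 ± 0.23, Slc1a2 at -0.26 ± 0.16, Sox10 at 0.30 ± 0.17 and Mog at 0.18 ± 0.28.

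The 7 fibroblast and mural cell markers, relevant to Rgs5, summed to 32.83 to 35.66 in deltamethrin arrays and 33.77 to 34.71 in vehicle arrays. In that list Pdgfrb was at 5.75 and 6.52 in deltamethrin cells, against 5.33 and 4.58 in vehicle cells, and Acta2 at 5.39 and 5.76 in deltamethrin cells, against 6.32 and 6.24 in vehicle cells. Pdgfrb and Acta2 thus went opposite ways, and neither passed (limma adjusted p = 0.225 and 0.207). The part of any of these marker shifts in the RGS values was not tested.

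**Figure D4:**
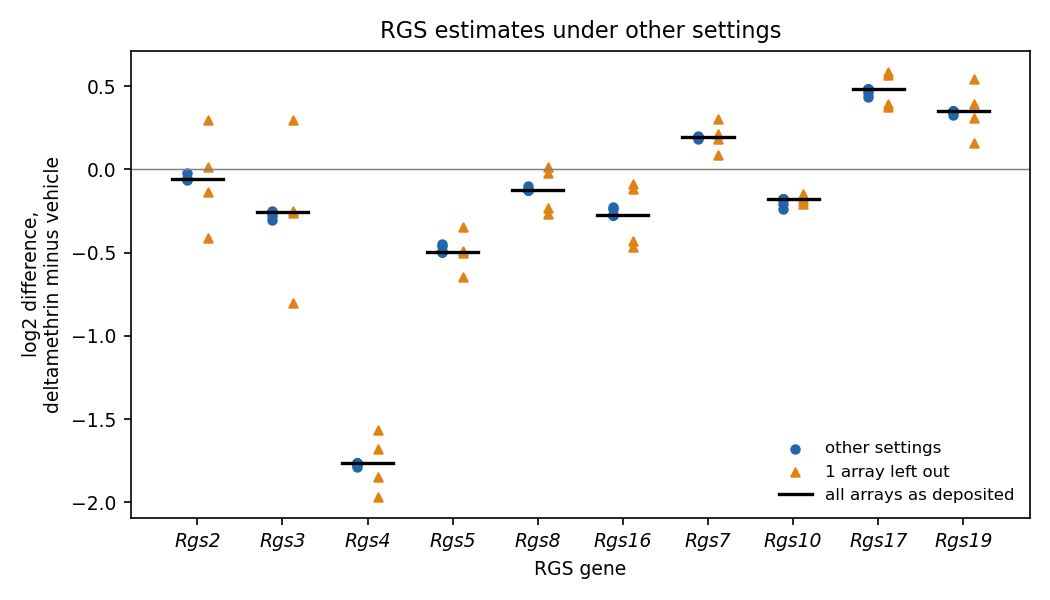
Log2 difference, deltamethrin minus vehicle, of the 10 RGS genes with all arrays as deposited (black bars), under other normalizations, filters and models (blue) and with 1 array left out (orange triangles). Rgs4 stays between -1.97 and -1.57, while Rgs2, Rgs3 and Rgs8 have values on both sides of 0.

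Rgs4 was lower in deltamethrin cells under every one of 12 alternatives, and its call held under 7 of them. The block, the 40th percentile filter on mean level, the variance models and the 2-fold minimum leave an estimate unchanged by design. Leaving out 1 array cannot turn the sign of a gene whose groups do not overlap. For Rgs4 only quantile and cyclic loess normalization could therefore have changed the sign. Median centring moves all estimates by the same small amount, for Rgs4 from -1.765 to -1.7625. The 2-fold minimum could not remove the call of a gene that differed by more than 2-fold. In the 5 fits without the call limma called 0 of all probe sets (1631 to 3221 at an unadjusted p below 0.05). Rgs5, Rgs7, Rgs10, Rgs16, Rgs17 and Rgs19 kept the sign of their estimates under every alternative in which they were tested, without a call in any. Apart from Rgs16, the groups of these genes did not overlap, so again only quantile and cyclic loess normalization could have changed the sign.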

How the data were processed

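Total RNA of Neuro-2a cells was hybridised to 4 Clariom S Mouse arrays. The authors deposited 1 log2 value per probe set and array. Per the submitters' processing notes these were made with Transcriptome Analysis Console and RMA, of unstated version. The range of the values, 1.92 to 18.75, gave the scale, and RMA aligns the arrays, whose medians were 5.61 to 5.63. Groups came from the sample titles.

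All 22206 probe sets were fitted with limma 3.58.1 (R 4.3.3; lmFit, eBayes, no block), two-sided, with Benjamini-Hochberg adjustment over all of them. An adjusted p below 0.05 was called. Symbols came from the platform annotation: 19572 probe sets had 1, and the 2634 without exactly 1 were left unnamed here. The brightest probe set stood for a gene. Of 151 listed pathway symbols, some of them older names, 140 matched. The table gave no detection call.

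The RGS genes and lists were chosen with earlier results of these data known. Named by rule were all RGS genes chosen, the other RGS genes that were not dim, up to 4 called or 2 lowest-p genes per list, fixed genes (Arrb2 had no match) and the 5 genes likest to Rgs4. Neighbouring genes, dim RGS and R7 partner genes, genes called with a trend, and the markers Tubb3, Phox2a, Hand2, Gata2, Nefl, Nefm and Th were named after their values were seen. The fit was tested on simulated data. Alternatives were the replicate block, a filter at the 40th percentile of mean level, 3 normalizations, 2 variance models, a 2-fold minimum and each array left out.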

Additional observations from a re-analysis of the deposited data

How the results depend on the processing

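Over all probe sets limma called 96 in the comparison of deltamethrin with vehicle, and of 140 pathway genes 0 (16 at an unadjusted p below 0.05). Leaving out probe sets below the 40th percentile raised these counts to 312 and 3 (Cnr1, Grk5 and Prkar1b), and a mean-variance trend to 806 and 8. Leaving out any 1 array gave 0 and 0, with 1631 to 2779 probe sets at an unadjusted p below 0.05, and the lone array of a group was assumed to vary like the other group. The replicate number as a block left 1 residual degree of freedom and gave 0 and 0, with 3221 at an unadjusted p below 0.05. Same-numbered arrays deviated together with a correlation of 0.13, and with 2 pairs the numbers do not establish pairing. Quantile, cyclic loess and median scaling, robust moderation and a 2-fold minimum gave 89 to 116 calls and 0 pathway genes. With 1 array left out, estimates ran from -0.42 to 0.29 for Rgs2 (0.015 without deltamethrin replicate 2), from -0.81 to 0.29 for Rgs3, and from -0.27 to 0.015 for Rgs8. Dim levels limit Rgs2, Rgs5, Rgs8 and Rgs16. Rgs2, Rgs5 and Rgs16 were not tested once probe sets below the 40th percentile were left out. Rgs8 was tested there, since this filter is lower than the median that defines dim. The cause of these differences between settings was not tested.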
